A study of Mus musculus with 2 samples.

Results

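*Hk1* and *Sord*, the genes of hexokinase 1 and sorbitol dehydrogenase, are 2 of the 4788 genes listed in a table of FMRP RNA immunoprecipitation sequencing (RIP-seq) from mouse testis, and they were taken from it by gene name. Testes of adult wild-type mice were lysed, 1 library was made from the lysate (input), and 1 library was made from the RNA recovered with an antibody against FMRP (FMRP RIP). The strain of these mice was not given separately in the sources used here (a *Kif6* mutant line of the study was made in C57BL/6 zygotes), and no IgG library was analysed here. The table lists only protein-coding genes with a mark for a higher value after precipitation, given by the authors. By the paper's methods this call required a minimum fold change. Low ratios are therefore cut off from every median, rank and share of listed genes below. The study chose *Hk1* and *Sord* for follow-up with the help of these same libraries. That both genes are higher in the FMRP RIP is therefore set by the selection and is no finding. The study took genes with a log2 fold change above 1 further, so a ratio above 2 for *Hk1* and *Sord* was in effect set as well. With 1 library of each kind there is no replicate check, so the values below are descriptions of these libraries, without tests.

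Hexokinase 1 phosphorylates glucose, the first step of glycolysis, and it can also act on fructose. Sorbitol dehydrogenase oxidizes sorbitol to fructose in the polyol pathway and so opens a further sugar to sperm. Glycolysis along the flagellum is an important source of ATP for sperm movement in the mouse, and spermatogenic cells are known to make *Hk1* transcripts of their own, whose protein lacks the segment that tethers the somatic enzyme to mitochondria. FMRP is an RNA-binding protein found with polyribosomes, known for its control of translation, and its loss causes fragile X syndrome.

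In the files, which use GRCm38 coordinates, *Hk1* (ENSMUSG00000037012) lies on the minus strand of chromosome 10 from 62268855 to 62379908 and spans 111.1 kb. *Sord* (ENSMUSG00000027227) lies on the plus strand of chromosome 2 from 122234749 to 122265340 and spans 30.6 kb. The RefSeq annotation of GRCm38.p6 gives *Hk1* 9 transcripts, of which 2 are curated and 7 are models, with 2 start sites that lie 39.5 kb apart, at 62379908 and 62340421. For *Sord* it gives 1 transcript and 1 start site, at 122234839. More than 1 start site is no particular trait of *Hk1* among abundant listed genes: of 246 whose input was 100 CPM or more (CPM being reads scaled to the library total) and which have a start site in the table, 72 (29.3%) had at least 2. The deposited values are summed per gene, so the transcripts from the 2 *Hk1* start sites are not separated here. An antisense gene, *Hk1os*, overlaps *Hk1* from 62340234 to 62363611. Whether the counting used strand is not given in the sources used here, so reads of *Hk1os* and *Hk1* in that stretch cannot be told apart. No annotated gene overlaps *Sord*. The hexokinase domain gene *Hkdc1*, 3.23 kb from *Hk1*, was not among the listed genes.

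The study also followed both transcripts by PCR, and its primers are shown because they define the stretch of each mRNA that was amplified. They are written 5′ to 3′ in lower case, as no part of them is singled out. Their genomic positions were not determined here.
*Hk1* forward: tgccatgcggctctctgatg
*Hk1* reverse: cttgacggaggccgttgggtt
*Sord* forward: tgcggctcagatgttcacta
*Sord* reverse: taccggccaatcttgcagta
The *Hk1* primers have 20 and 21 bases, and both *Sord* primers have 20.

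The total behind the CPM values was 30849871 reads for the input library and 36506932 for the FMRP RIP library, as recovered from the step between the deposited values. Whether these totals hold all sequenced reads is not given in the sources used here. Shares of reads are shares of these totals. CPM scales the reads on a gene to the total of its library and is not corrected for transcript length, so it does not rank the number of molecules of different genes. The listed genes together took 14.2% of the reads before precipitation and 55.2% after it. Of the marker genes of testis cell types, 1 of 12 for spermatids and sperm (*Akap4*) and 2 of 10 for other germ cells (*Sycp1* and *Tex14*) were listed, and none of 25 for Sertoli, Leydig, peritubular, vessel and macrophage cells, where 21.3% of all RefSeq protein-coding genes were listed. As the table holds a selection, a missing marker says nothing about its level. Input and FMRP RIP came from whole testis, where the number of cells that carry a transcript and the amount in each cell cannot be told apart.

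*Hk1* had fewer reads than *Sord* before the precipitation and more reads after it. Its level was 481.9 CPM in the input (95% confidence interval 474.2 to 489.8, exact Clopper-Pearson), from 14868 reads. In the FMRP RIP it was 3279 CPM (3261 to 3298), from 119719 reads. *Sord* had 830.8 CPM in the input (820.6 to 841.0), from 25629 reads. Its FMRP RIP level was 1984 CPM (1969 to 1998), from 72419 reads. The intervals cover counting error only, and PCR copies of one molecule are not independent. At these depths counting error is small beside the difference between the libraries, but the variation between immunoprecipitations is unknown.

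The CPM ratio of FMRP RIP to input was 6.80 for *Hk1* (6.69 to 6.92) and 2.39 for *Sord* (2.35 to 2.42), and these counting intervals do not overlap. On the log2 scale, without a pseudocount, the ratios were 2.77 and 1.26. The comparison of the pair does not depend on how the libraries were scaled, since both genes are read in the same libraries. For each *Sord* read the input had 0.58 *Hk1* reads (0.568 to 0.592) and the FMRP RIP 1.65 (1.64 to 1.67), a 2.85-fold shift toward *Hk1*. The gain in level from input to FMRP RIP was 2797 CPM for *Hk1* and 1153 CPM for *Sord*.

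The sign of the *Sord* difference does depend on the reference. Measured against all reads, its share went from 0.083% to 0.198%. Within the reads on the listed genes, *Sord* held 0.586% of the input and 0.359% of the FMRP RIP, so it took a smaller part of the recovered set than of the same genes in the lysate. *Hk1* went from 0.048% to 0.328% of all reads, and from 0.340% to 0.594% of the reads on listed genes. All listed genes together had a ratio of 3.89, which lies between the ratios of *Sord* and *Hk1*.

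**Figure D1:**
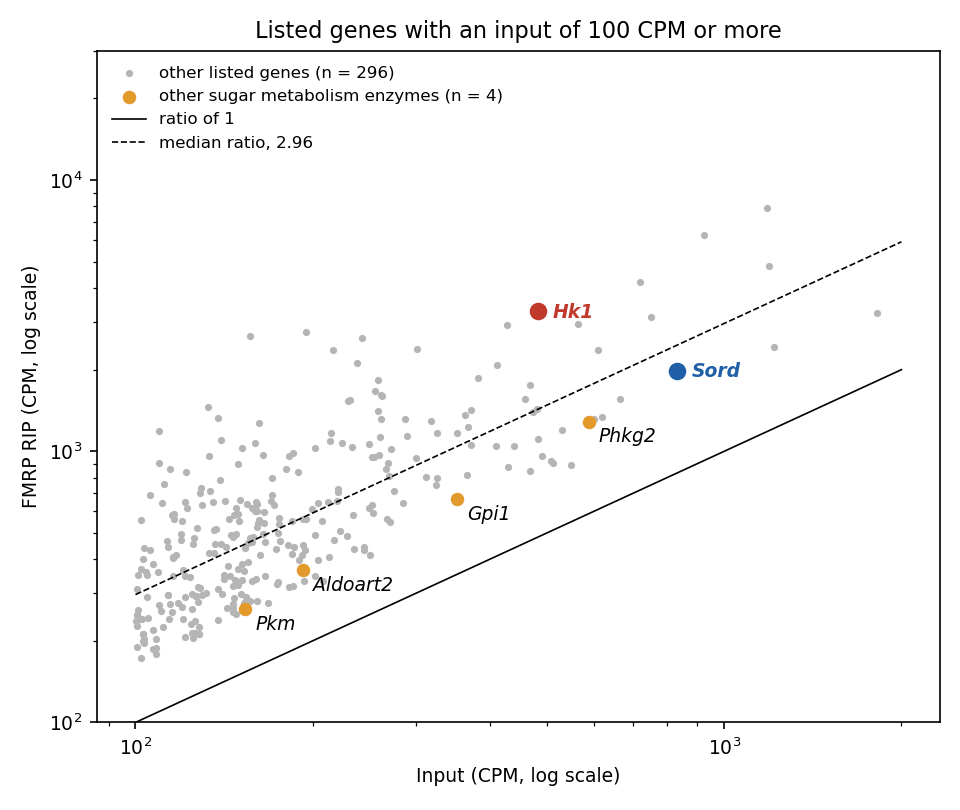
Level in the input (x axis, CPM, log scale) against the level in the FMRP RIP (y axis, CPM, log scale) for the 302 listed genes with an input of 100 CPM or more, each point 1 gene from 1 library per axis. *Hk1* (red, 481.9 and 3279 CPM) lies above the dashed line of the median ratio of 2.96, whereas *Sord* (blue, 830.8 and 1984 CPM) and the other 4 sugar metabolism enzymes (orange) lie under it.

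Among the 302 listed genes with an input of at least 100 CPM, *Hk1* ranked 21 by input, 5 by FMRP RIP level and 18 by CPM ratio. Its FMRP RIP level lay above 98.7% of the others and its ratio above 94.4%. Of the 4 genes with more FMRP RIP CPM in this set, all had more input than *Hk1*. They include *Atp8b3*, which encodes a phospholipid flippase of the acrosome, *Odf2*, which encodes a protein of the outer dense fibers, and the translation elongation factor gene *Eef2*. Of the 20 listed genes with more input than *Hk1*, none had a higher ratio, the nearest being *Odf2* at 6.78 (6.70 to 6.87), whose interval overlaps that of *Hk1*. *Atp8b3* followed at 6.65 (6.58 to 6.72), which also overlaps. Of 34 listed genes whose input was within 1.5-fold of that of *Hk1*, 33 had a lower ratio, and their median was 2.49.

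*Sord* ranked 6 by input, 19 by FMRP RIP level and 193 by CPM ratio among the 302 genes. Its high place in the FMRP RIP thus went with a high place in the input: the FMRP RIP level lay above 94.0% of the others, but the ratio above only 36.2%. The background for a ratio of at least 2 was 81.8% of these 302 genes and 81.3% of all 4788 listed genes, so the place of *Sord* past that limit was shared by most of the table. All 5 listed genes with more input than *Sord* also had more FMRP RIP CPM, and 2 of them had a lower ratio. Of the 12 listed genes whose input was within 1.5-fold of its own, 5 had a lower ratio. The median of these 12 was 3.97. By FMRP RIP level it stood between *Adam5* (2072 CPM) and *Adam3* (1855 CPM), which encode sperm surface proteins of the ADAM family. These reached that level from lower inputs of 410.5 and 381.8 CPM, with ratios of 5.05 and 4.86.

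Counting error leaves these places by ratio only partly fixed. At the ends of its interval, *Hk1* would rank from 16 to 22, and the intervals of 11 other genes of the 302 overlap its own. Its neighbor below in this order was *Prrc2a* at 6.79 (6.59 to 7.01), which does not differ from *Hk1* beyond counting error. *Sord* would rank from 189 to 199, and 31 other intervals overlap its own. *Lrrc27*, *Hspa4l*, *Ehd1* and *Pwwp2b* each stand among the 302 under separate gene identifiers with near-equal values, and every entry was counted. Those of *Lrrc27* and *Hspa4l* are among the 31. *Wwp2*, the gene of a ubiquitin ligase, stood just above it and *Pias2*, the gene of a SUMO ligase, just below, both at 2.39 to 3 digits.

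**Figure D2:**
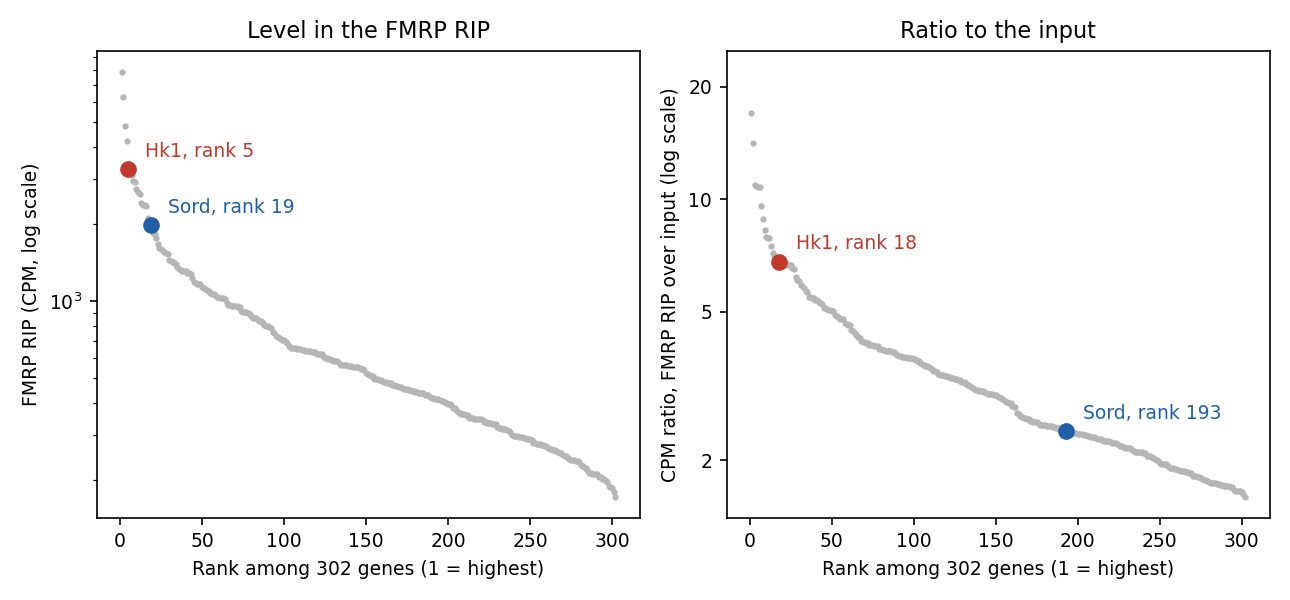
The 302 listed genes with an input of 100 CPM or more, ordered by FMRP RIP level (left, CPM, log scale) and by CPM ratio of FMRP RIP to input (right, log scale), with rank 1 the highest and 1 point per gene. *Hk1* (red) ranks 5 and 18, whereas *Sord* (blue) ranks 19 by level and 193 by ratio.

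The genes most like each of the pair were sought by the distance in log2 input and log2 FMRP RIP CPM, a likeness over only 2 libraries. The 5 nearest to *Hk1* include *Phf7*, a gene of a spermatid chromatin reader (distance 0.27), the axonemal dynein heavy chain gene *Dnah8* (0.58) and *Akap4*, which encodes the main protein of the fibrous sheath (0.65). *Phf7* had an input of 563.6 CPM, an FMRP RIP level of 2954 CPM and a ratio of 5.24. For *Sord* they were *Spata20* (0.47), *Dnah8* (0.51), *Fhl4* (0.62), *Akap4* (0.67) and *Mroh4* (0.71). *Spata20* had 665.6 and 1565 CPM and a ratio of 2.35 (2.31 to 2.39), which does not differ from that of *Sord* beyond counting error. *Dnah8* and *Akap4* stood among the nearest 5 of both, with ratios of 3.89 and 4.14 between those of the pair.

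Of 143 enzymes of sugar metabolism, 20 were listed, or 14.0%, where 21.3% of all RefSeq protein-coding genes were. Without *Hk1* and *Sord*, 18 of 141 were listed (12.8%). Of the 20, 13 (65.0%) had a ratio of at least 2, against the 81.3% of all listed genes, and their median ratio was 2.18 against 3.06. *Hk1* and *Sord* were in effect selected on a ratio above 2. Leaving them out, 11 of 18 had a ratio of at least 2, and the median was 2.13. The counts describe the table and were not tested. *Hk1* had the highest FMRP RIP level and the highest ratio of the 20, from the third highest input. *Sord* had the highest input, the second highest FMRP RIP level and the seventh highest ratio.

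The pair carried much of the sugar enzyme reads. Summed over the 20 enzymes, the input was 2901 CPM and the FMRP RIP level 8756 CPM, a ratio of 3.02. *Hk1* made up 16.6% of this sum before precipitation and 37.5% after it. *Sord* made up 28.6% and 22.7%. Without *Hk1*, the ratio of the sums was 2.26, and without both it was 2.20, near the ratio of *Sord*.

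By step of the pathway, *Hk1* was the only listed gene of 5 hexokinase genes. The other 4, among them *Hk2*, *Hk3* and *Hkdc1*, were not listed, which can mean that they were not expressed, not measured or not higher. Of 30 genes of the later steps of glycolysis and of lactate formation, 7 were listed (23.3%, near the 21.3% of all RefSeq protein-coding genes). Of these 7, only 1 had a ratio of at least 2, against 81.3% of all listed genes. That 1 was *Aldoart1*, a retrogene of aldolase expressed in testis, with an input of 28.7 CPM and 175.0 CPM after precipitation. Its ratio of 6.11 (5.69 to 6.56) was the closest to that of *Hk1*, and its interval lay below. The other 6 had ratios from 1.68 (*Eno1b*) to 1.90 (*Gpi1*). *Gpi1*, whose enzyme takes the product of hexokinase to the next step, went from an input of 351.5 CPM to an FMRP RIP level of 667.4 CPM. The aldolase retrogene *Aldoart2* went from 192.2 to 364.2 CPM, a ratio of 1.89, and the pyruvate kinase gene *Pkm* from 153.6 to 261.5 CPM, a ratio of 1.70. *Gapdhs*, *Pgk2* and *Ldhc*, which encode the germ cell forms of their enzymes, were not listed.

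*Sord* was the only listed gene of 11 in the polyol and fructose list, where 21.3% of all RefSeq protein-coding genes were listed. *Akr1b3*, the aldose reductase gene whose product makes the sorbitol that SORD oxidizes, and *Khk*, the fructokinase gene, were not listed. Among the other listed enzymes, 6 had ratio intervals wholly above that of *Sord*, among them *Hk1*, *Aldoart1*, *G6pd2*, *Pdk2* and *Pmm2*. The intervals of 4 overlapped that of *Sord*, and 9 lay below.

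In the glycogen list, 4 of 22 genes were listed and all had a ratio of at least 2. Over all RefSeq protein-coding genes 21.3% were listed, the share to set beside each count of listed genes here. Of all listed genes, 81.3% had a ratio of at least 2. The interval of *Epm2a*, from 1.51 to 3.15, includes 2, as does that of *Phka2* below. *Phkg2*, the gene of a catalytic subunit of phosphorylase kinase, had the highest CPM of this list, with an input of 588.1 CPM, an FMRP RIP level of 1287 CPM and a ratio of 2.19 (2.15 to 2.23). *Phka2*, the gene of a regulatory subunit of phosphorylase kinase, had the lowest ratio of this list, 2.07 (1.86 to 2.30). The pentose phosphate list had 1 of 17 listed, *G6pd2*, a retrogene of glucose-6-phosphate dehydrogenase, at 3.91 (3.51 to 4.37). From the list of pyruvate dehydrogenase and its regulators, *Pdk2*, whose kinase inhibits the complex, was the 1 listed of 13, at 3.66 (3.50 to 3.84). Of 31 genes for galactose, mannose and amino sugars, 3 were listed: *Pmm2* (2.98), *Gfpt1* (2.36) and *Uap1* (2.09). Of 14 genes that control glycolysis or reverse it, 2 were listed, *Pfkfb3* at 2.36 and *Pfkfb4* at 1.89.

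**Figure D3:**
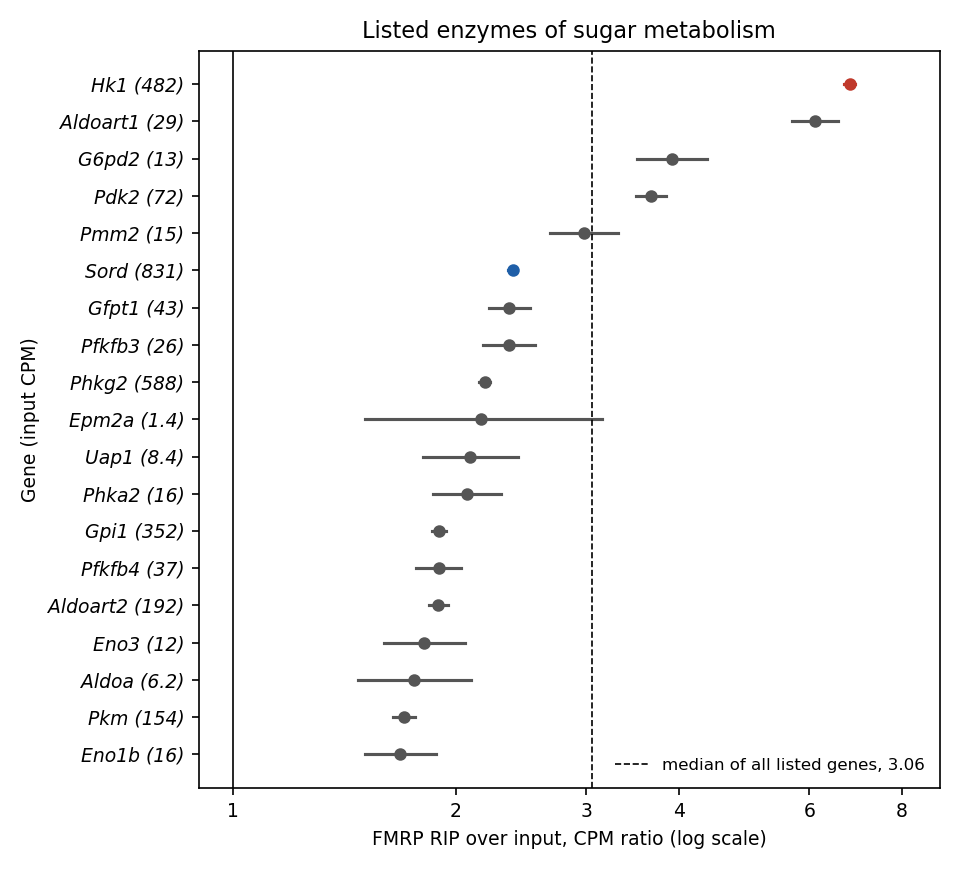
CPM ratio of FMRP RIP to input (x axis, log scale) for 19 of the 20 listed enzymes of sugar metabolism, with the input CPM after each name; points are ratios and lines exact 95% counting intervals. *Hk1* at 6.80 and *Aldoart1* at 6.11 stand apart from the others, and *Sord* at 2.39 lies left of the dashed line, the median of 3.06 of all listed genes.

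Of the 6 sugar enzymes with an input of at least 100 CPM, 3 had a ratio of at least 2, against the 81.8% of all genes at that level. They were *Hk1* and *Sord*, which the study in effect selected on this limit, and *Phkg2*. The others were *Gpi1*, *Aldoart2* and *Pkm*. The values of 8 of the 20 enzymes were not whole reads, among them *Sord*, with 25628.64 and 72419.16 reads, and both aldolase retrogenes. How the counting gave fractions of reads is not given in the sources used here, and reads shared with a similar gene are a limit on these 8 values, most of all for retrogenes. The reads of *Hk1* were whole in both libraries.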

How the data were processed

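RIP-seq values came from 1 input and 1 FMRP RIP library of adult wild-type mouse testis, grouped by their labels. The authors deposited CPM values per gene for each library; the submitters' processing notes name STAR and GRCm38 (mm10), and the counting tool is not given in the sources used here. The authors called enrichment with edgeR, and their fold change and p-value columns were not used. No column was left without a sample. Genes that the authors did not mark as higher were not analysed here.

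Library totals were derived from the CPM step, and 78.4% of the input and 78.8% of the FMRP RIP values above 0 were whole reads within 0.005 read. No count test was run, as 1 library of each kind allows no test between them. A single read corresponds to 0.0324 CPM (input) or 0.0274 CPM (FMRP RIP). Ratios had no pseudocount. Intervals at 95% were exact Clopper-Pearson intervals from rounded reads. Ranks were taken over listed genes with an input of at least 100 CPM. Gene names were matched to RefSeq GRCm38.p6, which left 71 listed genes unmatched. The members and the lists were chosen with earlier results of these data known. Named were *Hk1*, *Sord*, the listed sugar enzymes, the neighbors of the pair in each order and the 5 genes nearest to each; *Hkdc1*, *Hk1os* and further genes were named after the values were seen. Some genes that this rule names are not reported here. Functions were tested on simulated data. The alternatives were other pseudocounts, scalings, input minimums and the removal of genes with divided reads. Scripts ran in Python 3.11.15 with matplotlib 3.10.9, scipy 1.17.1, pandas 2.3.3 and numpy 2.4.6.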

Additional observations from a re-analysis of the deposited data

How the results depend on the processing

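The CPM ratios depended on the scaling and hardly on the pseudocount. Scaling to all reads not on listed genes gave 13.0 for *Hk1* and 4.57 for *Sord*. Scaling to the total of the listed genes gave 1.75 and 0.614, and scaling to the median ratio of listed genes with an input of at least 100 CPM gave 2.30 and 0.806, so that *Sord* fell under 1 in both. These last 2 scalings were chosen after seeing the data. They follow from the construction, since each divides by a ratio between those of the pair. Pseudocounts of 1 and 5 CPM and whole reads left both ratios inside their counting intervals.

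Ranks changed with the genes ranked. By FMRP RIP level, *Hk1* ranked 6 and *Sord* 20 with an input minimum of 50 CPM (708 genes) and also with none (4788 genes). *Sord* ranked 17 with a minimum of 200 CPM (99 genes). Removing genes whose reads were not whole, which was also decided with the data in view, left 207 genes with an input of at least 100 CPM. The reads of *Sord* itself were not whole, so it was placed against these 207 by its values in both orders. By FMRP RIP level *Hk1* then ranked 3 and *Sord* 13. By ratio, *Hk1* ranked 68 and *Sord* 463 with 50 CPM, 7 and 66 with 200 CPM, 681 and 3204 with none, and 10 and 133 without genes whose reads were not whole. Of the 20 sugar enzymes, 13 had a ratio of at least 2, and scaling to all reads not on listed genes gave 20. The count was 11 and 10 with the pseudocounts. It was 9 once the 8 enzymes whose reads were not whole, among them *Sord*, were taken out, so this count is not out of 20. The share of all listed genes under these other settings is not given here.

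Levels per kb of transcript and transcript features were not run, as no transcript lengths were used here. No paired analysis was possible because there was a single library of each kind. Leaving out a library was likewise not possible. Depth limits neither member, but it does limit low enzymes such as *Epm2a*, whose ratio of 2.16 has an interval from 1.51 to 3.15.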

Other observations

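Beside the sugar enzymes, 3 lists of genes close to sperm energy supply were counted. Of 13 adenylate and creatine kinase genes, which move phosphate between nucleotides or to creatine, 4 were listed, all with a ratio of at least 2, where 21.3% of all RefSeq protein-coding genes were listed and 81.3% of the listed genes had such a ratio. *Ak9* had the highest ratio among them, 12.7 (95% counting interval 11.1 to 14.6), from an input of 7.62 CPM to an FMRP RIP level of 96.8 CPM, above the ratio of *Hk1*. The input value of *Ak9* was not whole reads (235.23), so shared reads are a limit on it too. *Ak3*, *Ak5* and *Ak7* lay between 2.77 and 3.02. The tricarboxylic acid cycle list had 4 of 22 genes listed, with ratios from 1.75 (*Mdh1b*) to 2.45 (*Dlst*). Of 19 carriers of hexoses and lactate, 2 were listed. *Slc2a5*, the gene of the fructose carrier GLUT5, had an input of 512.0 CPM, an FMRP RIP level of 907.8 CPM and a ratio of 1.77. *Slc16a7*, the gene of a monocarboxylate carrier, had 284.9 and 641.9 CPM, a ratio of 2.25. Both ratios were under those of *Hk1* and *Sord*.

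The gene next to *Hk1* past its 3′ end, *Tacr2*, which encodes a tachykinin receptor, was also listed, on the opposite strand and with an input of 0.454 CPM and an FMRP RIP level of 1.23 CPM. Its ratio of 2.72 (1.46 to 5.36) rests on 14 and 45 reads.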
